A study of Mus musculus with 14 samples.

Results

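The values of 9 genes of catecholamine signalling were followed in mouse heart muscle cells in which the calcium release channel gene Ryr2 had been targeted. They are the receptor kinases Grk5, Grk6 and Adrbk1 (the older symbol of Grk2), the adrenergic receptors Adrb1, Adra1a and Adra1b, the adenylyl cyclases Adcy5 and Adcy6, and the arrestin Arrb1. They were taken by symbol from a count table of 23337 genes, and all 9 were present. The choice was made with the contrast between the groups already known, so the values of these 9 genes in that contrast are given as a description. Where a call of one of these genes is named, it shows how the call depends on the libraries and the fit. Nothing is read from such a call as a test.

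The 7 libraries called KO after their titles came from Rosa-Cas9GFP mice given AAV-Ryr2gRNA, an adeno-associated virus named for a guide RNA to Ryr2. The 7 libraries called Ctrl came from Rosa-Cas9GFP mice given AAV-Cre. All mice were injected at postnatal day 1 and were 4 weeks old when cardiomyocytes were isolated by Langendorff perfusion and sorted by flow cytometry. Both groups thus share the Rosa-Cas9GFP allele, but the sources used here do not give whether the guide virus also carried Cre, its promoter, the position of the guide or the gate of the sort. What the guide did and what the different viruses did cannot be told apart.

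Noradrenaline and adrenaline raise the force and rate of the heart mainly through the beta1 receptor. That receptor couples to the G protein Gs, adenylyl cyclases then make cyclic AMP, and protein kinase A phosphorylates calcium-handling proteins that include the ryanodine receptor itself. The alpha1 receptors couple to Gq, phospholipase C and protein kinase C. G protein-coupled receptor kinases phosphorylate receptors that are occupied by agonist, after which arrestin binds and uncouples them.

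Ryr2 averaged 309 ± 48.1 CPM in KO libraries and 675 ± 71.4 CPM in Ctrl libraries (SD, n = 7 each), where CPM is the normalised read count, scaled to a common library size. Library totals ran between 5689335 and 11064715 counts in KO libraries and between 6313220 and 13165662 in Ctrl libraries. The 9 cardiomyocyte markers, all of them present, summed to between 72818 and 98911 CPM in KO libraries and between 91736 and 107015 CPM in Ctrl libraries, with 6 of 9 lower in KO, Ryr2 among them. Macrophage markers summed to between 51.1 and 380 CPM in KO libraries, against 18.5 to 96.8 CPM in Ctrl libraries, and 3 of the 7 tested were higher in KO. Fibroblast and endothelial markers had 0 of 7 and 0 of 8 tested genes called in either direction. The 4 libraries with library indices 7 to 10 (KO replicates 4 and 5, Ctrl replicates 4 and 5) stood apart. Their fibroblast markers summed to between 596 and 1233 CPM, against 162 to 377 CPM in the other 10 libraries, and their endothelial markers to between 704 and 938 CPM, against 265 to 594 CPM. Their macrophage markers summed to between 93.6 and 380 CPM, against 18.5 to 85.1 CPM, with the highest sum in KO replicate 4. The labels name no batch for them, and values within and outside these libraries are given below. In such bulk samples, fewer cells of a type and less RNA per cell cannot be told apart.

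Among the 9 genes, Grk5 stood far above its Ctrl level in KO libraries, Adra1a stood below it, and the other 7 had KO means between 0.875 and 1.18 times their Ctrl means. With edgeR's quasi-likelihood test over 11170 genes at an adjusted p under 0.05, 1 of the 9 was called higher in KO and 1 lower, while 7 passed in neither direction. Over all genes tested, 28.2% were called, 14.5% higher and 13.7% lower in KO. Since the genes were picked from this contrast, nothing is read from their count. The median log2 fold change was 0.04 over the 9 genes and 0.01 over all genes tested.

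**Figure D1:**
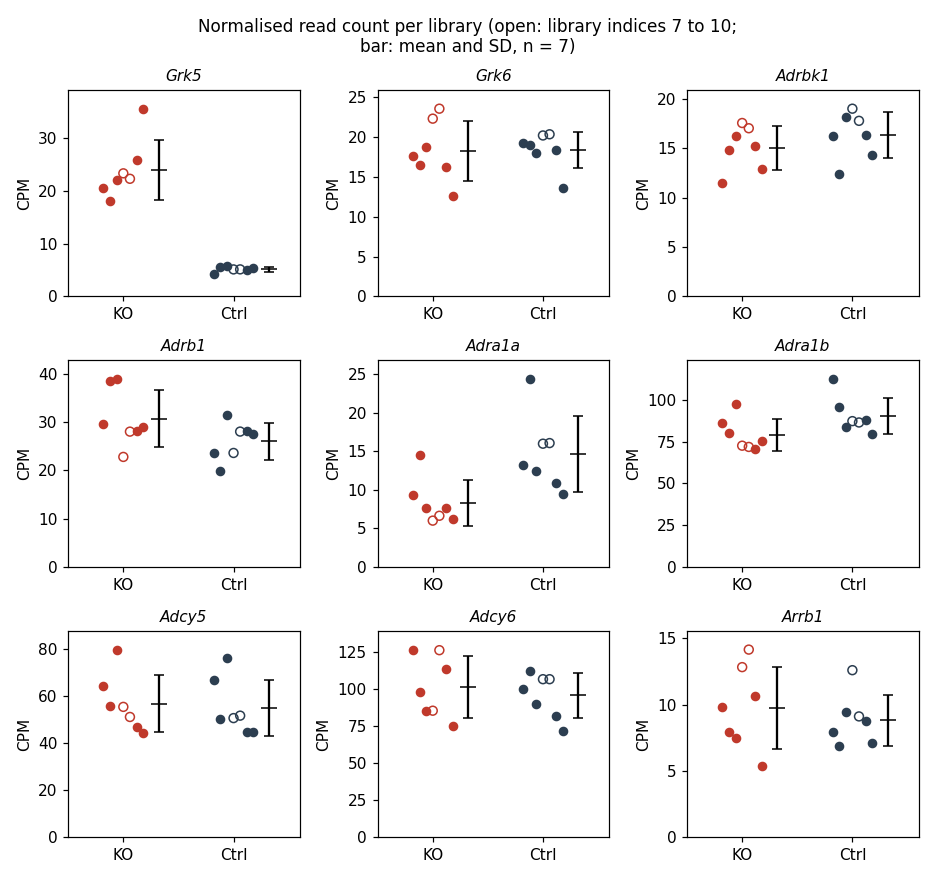
Normalised read count (CPM, linear axis from 0) of each of the 9 genes in every library, KO left and Ctrl right; open circles are library indices 7 to 10, and bars give the mean and SD (n = 7 each). Grk5 is the 1 gene in which the groups do not overlap, with KO libraries at 18.1 to 35.5 CPM and Ctrl libraries at 4.28 to 5.83 CPM.

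The receptor kinases behaved differently from one another. Grk5, a kinase that is anchored at the plasma membrane and can also enter the nucleus of heart muscle cells, lies on the plus strand of chromosome 19 at 60889749 to 61092555 (mm10, 16 distinct exons). Its lowest, median and highest values were 18.1, 22.2 and 35.5 CPM in KO libraries, against 4.28, 5.12 and 5.83 CPM in Ctrl libraries. All 7 KO libraries lay above all 7 Ctrl libraries. Across all genes tested, 10.5% had groups that did not overlap, 5.84% with KO above and 4.71% with KO below. The means were 23.9 ± 5.61 CPM in KO libraries and 5.18 ± 0.485 CPM in Ctrl libraries (SD, n = 7 each), a 4.61-fold difference and a log2 fold change of 2.22 (SE 0.141). The lowest count of Grk5 in any library was 31, and Ctrl libraries held 262 reads of it in all, so that counting error is a larger part of the Ctrl values than of the KO values, where 1343 reads were counted.

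The difference in Grk5 was about as large in both sets of libraries. Within library indices 7 to 10 it averaged 22.8 CPM in KO and 5.12 CPM in Ctrl libraries, and in the other 10 libraries 24.4 CPM in KO and 5.20 CPM in Ctrl libraries. The log2 fold changes were 2.11 (SE 0.194) and 2.25 (SE 0.187), while the fibroblast and endothelial markers differed between the sets as given above. The part of other cell types in the Grk5 level was not tested.

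The 250 bases before the annotated start of Grk5, and those before Grk6 for comparison with a kinase whose level was alike in the groups, were read from RefSeq's table for build GRCm38.p6, which shares its coordinates with mm10. Capitals mark matches to the motifs TGACGTCA (the cyclic AMP response element, CRE), TGACG (its core, which also lies inside the full CRE), TGATGNAA (bound by ATF4-type factors), the MEF2-type motif and GGAAA (the core bound by NFAT, the factor that calcineurin activates), searched on both strands.
Grk5, chr19:60889499-60889748, plus strand: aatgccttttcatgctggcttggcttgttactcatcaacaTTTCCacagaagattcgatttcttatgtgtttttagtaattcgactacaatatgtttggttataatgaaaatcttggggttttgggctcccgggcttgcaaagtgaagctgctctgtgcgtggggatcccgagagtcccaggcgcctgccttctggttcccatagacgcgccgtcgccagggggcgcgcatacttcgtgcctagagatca
Grk6, chr13:55445081-55445330, plus strand: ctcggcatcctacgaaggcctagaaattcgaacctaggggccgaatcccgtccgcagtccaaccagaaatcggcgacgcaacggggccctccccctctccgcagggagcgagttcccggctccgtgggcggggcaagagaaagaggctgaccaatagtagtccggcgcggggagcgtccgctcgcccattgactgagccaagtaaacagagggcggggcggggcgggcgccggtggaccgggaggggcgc

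The Grk5 window held 1 match in all, a GGAAA on the minus strand at position -210 from the start, and the Grk6 window held 0. GGAAA occurs in 55.6% of the 32807 windows of the same length in the table, so its presence is common. The CRE occurs in 1.5% of these windows, TGACG in 17.8%, TGATGNAA in 3.5% and the MEF2-type motif in 3.2%. The other motifs searched, the E-box CANNTG (66.2% of windows) and GATA (53.6%), had 0 matches in both windows. The Grk5 window was 49.6% G and C, and the Grk6 window 68.0%. A match is a run of letters and not a binding site, and 5 of the 9 genes had an entry in the table.

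Grk6, a widely expressed kinase, is a plus-strand gene of chromosome 13 (55445334 to 55460927). It had 12.6, 17.7 and 23.6 CPM (lowest, median, highest) in KO libraries, against 13.6, 19.0 and 20.4 CPM in Ctrl libraries. The ranges overlapped over nearly their whole length, with a log2 fold change of -0.02 (SE 0.128). Adrbk1, which encodes GRK2, the kinase that G protein beta-gamma subunits bring to the membrane, is a minus-strand gene of the same chromosome 19 as Grk5 (4286001 to 4305955). Its lowest, median and highest values were 11.5, 15.2 and 17.6 CPM in KO libraries and 12.4, 16.4 and 19.0 CPM in Ctrl libraries, again with overlapping groups (log2 -0.12, SE 0.114).

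Because the 3 transcripts have exonic lengths of 3167, 3243 and 3182 bp, their levels can be set side by side per kilobase of exon. Grk5 made up 42.0 ± 7.95% of the summed level of the 3 kinases in KO libraries and 13.3 ± 1.96% in Ctrl libraries (SD, n = 7 each). It ranged from 35.7% to 58.5% in KO and from 10.9% to 16.3% in Ctrl libraries, and was the smallest share in each Ctrl library. The highest KO share was that of KO replicate 7, followed by 45.3% in KO replicate 6. Adrbk1 made up 26.5 ± 3.14% in KO and 41.2 ± 3.35% in Ctrl libraries, and Grk6 31.5 ± 5.68% in KO and 45.5 ± 3.46% in Ctrl libraries. The sum itself was 17.9 ± 1.80 CPM per kilobase in KO and 12.4 ± 1.19 CPM per kilobase in Ctrl libraries. The levels of Grk6 and Adrbk1 themselves overlapped between the groups, as given above.

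**Figure D2:**
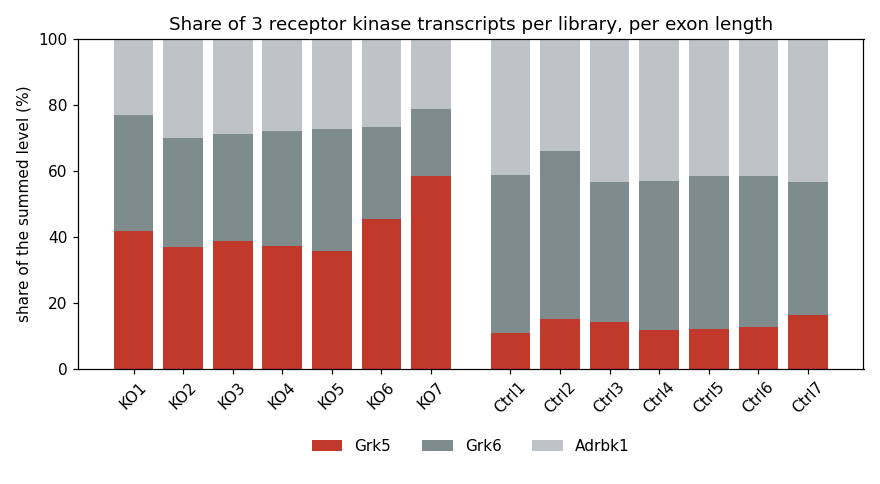
Share (%) of Grk5, Grk6 and Adrbk1 in their summed level per exon length, 1 bar per library, KO libraries left and Ctrl libraries right. Grk5 takes 35.7% to 58.5% in KO libraries and 10.9% to 16.3% in Ctrl libraries.

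The alpha1 receptors were lower in KO libraries or near their Ctrl level. Adra1a, whose receptor drives the Gq pathway in heart muscle, lies on the plus strand of chromosome 14 at 66635258 to 66733329. It had 6.01, 7.59 and 14.6 CPM (lowest, median, highest) in KO libraries, against 9.49, 13.3 and 24.4 CPM in Ctrl libraries. In Adra1a, 6 of the 7 KO libraries lay below every Ctrl library, while KO replicate 2 lay inside the Ctrl range, and Ctrl replicate 2 was the highest of the Ctrl libraries. The means were 8.28 ± 2.98 CPM in KO and 14.7 ± 4.94 CPM in Ctrl libraries (SD, n = 7 each), with a log2 fold change of -0.83 (SE 0.221). It was -1.37 (SE 0.201) within library indices 7 to 10 and -0.65 (SE 0.266) in the other 10 libraries, where Adra1a no longer passed the test over all genes. Adra1b (chromosome 11, 43774606 to 43836332, minus strand) was the most abundant alpha1 transcript. Its values were 70.8, 75.5 and 97.5 CPM in KO libraries and 79.6, 87.4 and 113 CPM in Ctrl libraries, so the groups overlapped although 4 KO libraries lay below all Ctrl libraries (log2 -0.20, SE 0.0861). Adra1b was called lower only on leaving out KO replicate 3, at a log2 fold change of -0.25.

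Adrb1, the gene of the beta1 receptor, through which noradrenaline mainly drives the heart, is a single-exon gene on the plus strand of chromosome 19 at 56722372 to 56724862. It had 22.8, 28.9 and 38.9 CPM (lowest, median, highest) in KO libraries and 19.9, 27.6 and 31.4 CPM in Ctrl libraries. KO replicates 2 and 3 lay above every Ctrl library and the other 5 lay inside the Ctrl range, with means of 30.7 ± 5.90 CPM in KO and 26.1 ± 3.83 CPM in Ctrl libraries (log2 0.24, SE 0.122). The log2 fold change was -0.05 (SE 0.166) within library indices 7 to 10 and 0.33 (SE 0.134) in the other 10 libraries. Per exon length, Adrb1 made up 30.4 ± 2.45% of the summed level of the 3 receptors in KO libraries and 24.1 ± 4.45% in Ctrl libraries, Adra1a 4.92 ± 1.38% in KO and 8.07 ± 2.54% in Ctrl, and Adra1b 64.7 ± 3.38% in KO and 67.8 ± 3.45% in Ctrl libraries (SD, n = 7 each).

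The main adenylyl cyclases of heart muscle did not separate the groups. Adcy5 (chromosome 16, 35155636 to 35304549, plus strand) had 44.3, 55.4 and 79.7 CPM in KO libraries and 44.7, 50.6 and 76.3 CPM in Ctrl libraries (lowest, median, highest; log2 0.04, SE 0.141). Adcy6 (chromosome 15, 98589986 to 98607633, minus strand) had 75.2, 97.9 and 127 CPM in KO libraries and 71.8, 100.5 and 112 CPM in Ctrl libraries (log2 0.08, SE 0.127). Per exon length Adcy6 took 59.9 ± 6.90% of the pair in KO and 59.5 ± 5.51% in Ctrl libraries. Their summed level was 28.1 ± 4.10 CPM per kilobase in KO and 26.8 ± 3.66 CPM per kilobase in Ctrl libraries.

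Arrb1, which encodes beta-arrestin 1, lies on the plus strand of chromosome 7 at 99535486 to 99606771. It had 5.36, 9.79 and 14.1 CPM in KO libraries and 6.90, 8.77 and 12.6 CPM in Ctrl libraries (lowest, median, highest; log2 0.13, SE 0.197). Its levels were higher in library indices 7 to 10, at a mean of 13.5 CPM in KO and 10.9 CPM in Ctrl libraries, than in the other 10, at 8.23 CPM in KO and 8.02 CPM in Ctrl libraries. The fibroblast and endothelial markers were higher in the same 4 libraries, and their part in the Arrb1 level was not tested.

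**Figure D3:**
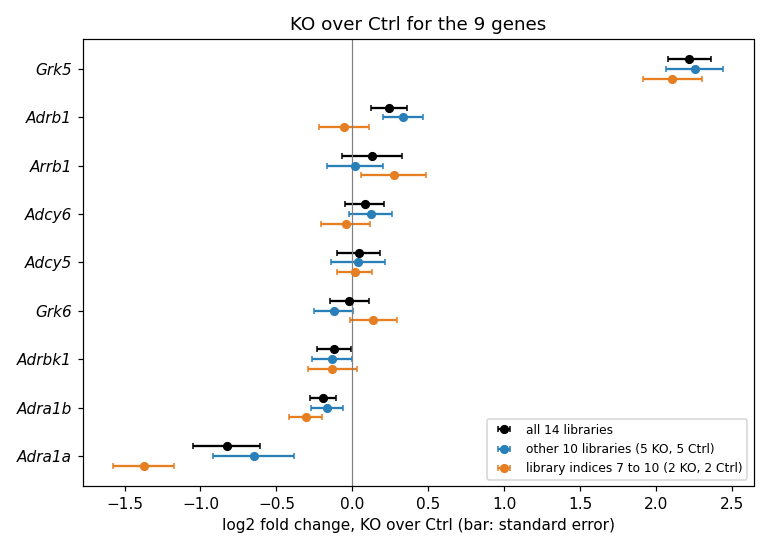
Log2 fold change of KO over Ctrl for each gene with its standard error, over all 14 libraries (black), in the 10 libraries outside library indices 7 to 10 (blue) and within those indices (orange). Grk5 lies between 2.11 and 2.25 in all 3, Adra1a between -1.37 and -0.65, and the other genes between -0.31 and 0.33.

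A test that the choice of genes did not use asked whether the difference between KO and Ctrl itself differed between library indices 7 to 10 and the other 10 libraries. Of the 9 genes, 0 were called (edgeR quasi-likelihood interaction, adjusted over 11170 genes), 0 had an unadjusted p under 0.05, and DESeq2 gave 0 and 0. Over all genes 0.00% were called by edgeR and 0 by DESeq2, with 339 genes at an unadjusted p under 0.05 in edgeR. The precision was low, with 2 libraries of each group in the smaller set. For Grk5 the effect in indices 7 to 10 minus that in the others was -0.11 (95% interval -0.82 to 0.60), for Adra1a -0.68 (-1.69 to 0.32), and for Adrb1 -0.35 (-0.88 to 0.18).

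The 9 transcripts also differed in level within each group. In Ctrl libraries, Adra1b came first at 29.7 ± 3.57 CPM per kilobase of exon, followed by Adcy6 (15.9 ± 2.47), Adcy5 (10.9 ± 2.36), Adrb1 (10.5 ± 1.54), Grk6 (5.67 ± 0.701), Adrbk1 (5.13 ± 0.725), Adra1a (3.54 ± 1.19), Grk5 (1.64 ± 0.153) and Arrb1 (1.24 ± 0.271). In KO libraries the order ran Adra1b (26.0 ± 3.18), Adcy6 (16.9 ± 3.48), Adrb1 (12.3 ± 2.37), Adcy5 (11.2 ± 2.38), Grk5 (7.55 ± 1.77), Grk6 (5.62 ± 1.15), Adrbk1 (4.73 ± 0.689), Adra1a (2.002 ± 0.721) and Arrb1 (1.37 ± 0.434), in the same unit (SD, n = 7 each). The places of Grk5 and Adra1a in these orders come from the same values that chose them and are a description.

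Neighbours in each order were compared by the ratio of their levels within each library. The order, and so the pairs, came from these same levels, so the direction of each mean ratio was set in advance. In Ctrl libraries 3 of 8 neighbouring pairs passed a two-sided exact sign-flip permutation test adjusted over the 8 pairs. Adra1b exceeded Adcy6 (log2 ratio 0.91, SD 0.207) and Adrb1 exceeded Grk6 (0.88, SD 0.336) in 7 of 7 libraries each (exact sign-flip adjusted p = 0.0417 for both). The ratio of Adra1b to Adcy6 turned round to -0.075 on the log2 scale without length scaling, as the Adcy6 transcript is the longer. The third pair was Adra1a over Grk5 (1.06, SD 0.451), which is given as a description because both genes were chosen for their values. Adcy5 and Adrb1 could not be ordered (log2 ratio 0.04, SD 0.324), nor could Grk6 and Adrbk1 (0.15, SD 0.224). In KO libraries 0 of 8 pairs passed after adjustment and 5 had an unadjusted p under 0.05 by the same exact test. There Grk5 exceeded Grk6 in 6 of 7 libraries (log2 ratio 0.42, SD 0.538). KO replicate 7 weighed most in that mean, with the highest Grk5 level (11.2 CPM per kilobase) and the lowest Grk6 level (3.90) of the KO libraries. With 7 libraries the smallest p this test can give is 0.0156, and on leaving out any 1 Ctrl library 0 of 8 Ctrl pairs passed.

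**Figure D4:**
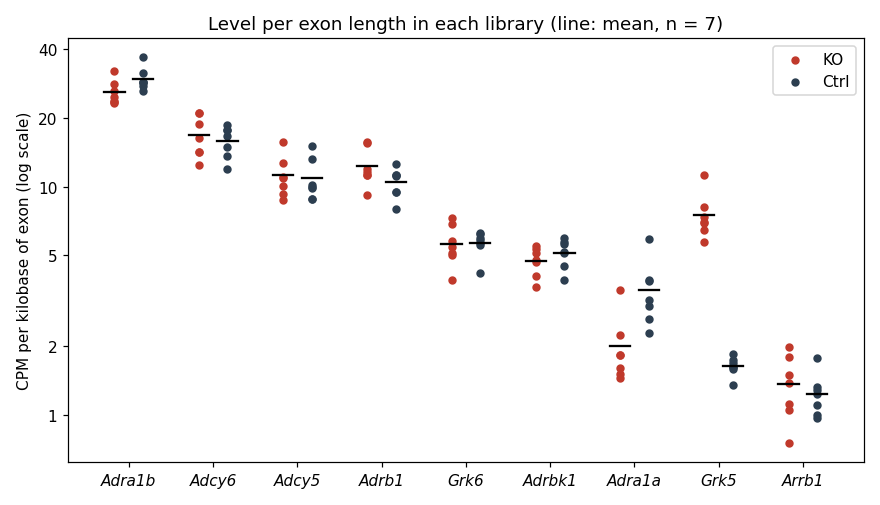
Level of each gene per kilobase of exon (CPM per kilobase, log axis) in every KO (red, left) and Ctrl (dark, right) library, in the order of the Ctrl means; lines are means of 7 libraries. Grk5 averages 7.55 in KO and 1.64 in Ctrl libraries.

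Genes whose pattern over the 14 libraries was most like that of Grk5 were sought by the root mean square difference of log2 CPM, each gene being centred on its own mean. Over 11169 other genes the median difference was 1.11. Among the nearest were Rtn4 (0.215), which encodes a protein that shapes the membranes of the endoplasmic reticulum, the elongation factor gene Eef1a1 (0.246), the growth factor gene Tgfb3 (0.260) and the phosphomannomutase gene Pmm1 (0.262). Rtn4 averaged 140 ± 35.8 CPM in KO and 32.6 ± 2.83 CPM in Ctrl libraries, and Tgfb3 52.6 ± 12.1 CPM in KO and 12.6 ± 3.10 CPM in Ctrl libraries (SD, n = 7 each). Since the measure includes the difference between the groups, it picks genes with a fold like that of Grk5, and Eef1a1 has processed copies in the genome that make its count uncertain. For Adrb1 the nearest were Trmt12 (0.150), 1810029B16Rik (0.158), Zbtb38 (0.159), Znhit2-ps (0.160) and Nop56 (0.163), against a median of 0.343.

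Further genes of the pathway were taken as 12 lists by function. These lists were drawn up with earlier results of these data known, so their counts and p-values below are no independent test. Of their 144 genes 113 passed the filter on low counts, of which 7 rose and 16 fell in KO libraries (edgeR quasi-likelihood test, adjusted over all genes). Within library indices 7 to 10 alone, 4 were called higher and 6 lower. The counts over all libraries are 6.19% higher and 14.2% lower, against 14.5% and 13.7% of all genes, so the lower share is near the background. Cardiomyocyte markers were also lower in KO libraries (6 of 9), and their part in the lower pathway genes was not tested. The median log2 fold change of the 113 tested pathway genes was -0.03, against 0.01 over all genes. All 23 changed genes had the same sign within library indices 7 to 10 and in the other 10 libraries, and 9 and 20 of them were called there. Both sets are parts of the 14 libraries that gave these calls. The shared sign is thus partly built in and is a description.

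Receptors, kinases and cyclases beside the 9 genes were mostly scarce. Among the other adrenergic receptors, Adrb3 had 0 counts in all 14 libraries, and Adra2a, Adra2b and Adra2c were too low to test. Adra1d, a further alpha1 receptor gene, averaged 1.49 ± 0.630 CPM in KO and 1.75 ± 0.546 CPM in Ctrl libraries (SD, n = 7 each) and did not pass (log2 -0.26, adjusted p = 0.584, edgeR). The kinase Adrbk2 (Grk3), at 16.5 ± 2.06 CPM in KO and 18.1 ± 2.71 CPM in Ctrl libraries, did not pass (log2 -0.14, adjusted p = 0.372, edgeR), nor did Grk4 or the arrestin Arrb2. Of 4 tested cyclases Adcy7 rose, to 5.96 ± 3.97 CPM in KO libraries against 2.63 ± 1.48 CPM in Ctrl libraries (log2 1.18, edgeR adjusted p = 0.0450). This call was lost without any 1 of KO replicates 3, 4, 5 and 6 and Ctrl replicates 1, 2, 3, 6 and 7 (adjusted p = 0.0535 to 0.110). Macrophage markers were also higher in KO libraries and in library indices 7 to 10, as given above, and their part in the Adcy7 level was not tested.

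Among 18 tested G protein subunits, 2 rose and 1 fell. Gnao1, an inhibitory alpha subunit best known from neurons, reached 15.5 ± 2.54 CPM in KO libraries against 9.26 ± 2.50 CPM in Ctrl libraries (log2 0.75, edgeR adjusted p = 0.00215), and the inhibitory subunit Gnai1 rose by 0.39 (14.1 ± 1.72 CPM in KO, 10.8 ± 1.30 CPM in Ctrl). Gnaq, the alpha subunit downstream of the alpha1 receptors, fell by 0.26 on the log2 scale (12.3 ± 1.15 CPM in KO, 14.6 ± 1.40 CPM in Ctrl), a call lost without any 1 of KO replicates 2, 3, 5, 6 and 7 and Ctrl replicates 1, 2, 3 and 4 (adjusted p = 0.0559 to 0.0775), in the 10 libraries outside indices 7 to 10 (adjusted p = 0.0856) and with no filter on low counts (0.0752). Gnas, the stimulatory subunit that couples the beta1 receptor to adenylyl cyclase, stood at 1307 ± 99.4 CPM in KO and 1334 ± 89.2 CPM in Ctrl libraries (log2 -0.03, adjusted p = 0.779, edgeR).

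Phosphodiesterases, which break down cyclic nucleotides, had 4 of 12 tested genes lower and 0 higher, with a median log2 fold change of -0.30. Over all genes tested, 13.7% were called lower and 14.5% higher. Pde1c, an enzyme that calcium and calmodulin activate, had 43.8, 61.6 and 78.9 CPM in KO libraries and 93.8, 102 and 120 CPM in Ctrl libraries (lowest, median, highest). The groups did not overlap (log2 -0.78, SE 0.107, edgeR adjusted p = 4.00e-05). For this and the further genes without overlap below, the share over all genes was 4.71% with KO below and 5.84% with KO above. Pde3a, which limits cyclic AMP near the sarcoplasmic reticulum, fell to 43.3 ± 6.17 CPM in KO libraries against 63.9 ± 11.1 CPM in Ctrl libraries (log2 -0.57, edgeR adjusted p = 0.00104). Pde4a and Pde4d, enzymes specific for cyclic AMP, both fell by 0.30 on the log2 scale. The call for Pde4a was lost without any 1 of KO replicates 4 and 5 and Ctrl replicates 1, 6 and 7 (adjusted p = 0.0550 to 0.0618), and that for Pde4d without any 1 of KO replicates 3, 5 and 6 and Ctrl replicates 1, 3 and 7 (0.0528 to 0.0676).

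For protein kinase A, 3 of 7 tested subunit and inhibitor genes were lower and 1 higher, against 13.7% lower and 14.5% higher over all genes. Pkia, an inhibitor of the catalytic subunit, fell to 259 ± 19.3 CPM in KO libraries against 345 ± 40.3 CPM in Ctrl libraries (log2 -0.41, edgeR adjusted p = 5.48e-04). Prkaca, the main catalytic subunit gene, fell to 385 ± 53.4 CPM in KO against 502 ± 50.8 CPM in Ctrl libraries (log2 -0.39), and the regulatory subunit gene Prkar2a to 146 ± 18.3 CPM in KO against 174 ± 12.1 CPM in Ctrl libraries (log2 -0.26). Prkar1b, a scarce regulatory subunit transcript, rose to 2.74 ± 0.939 CPM in KO against 1.45 ± 0.848 CPM in Ctrl libraries (log2 0.93). Its call was lost without any 1 of KO replicates 1, 4, 5, 6 and 7 and Ctrl replicates 1, 2, 3, 5 and 7 (edgeR adjusted p = 0.0521 to 0.0878), in the 10 libraries outside indices 7 to 10 (0.119) and with no filter on low counts (0.0529). Of 12 tested anchoring proteins, which hold the kinase near its targets, Akap1 of the mitochondrial surface (log2 -0.36) and Akap7, which tethers it at phospholamban and calcium channels (-0.37), fell and 0 rose. Akap1 values were 186 to 268 CPM in KO and 277 to 328 CPM in Ctrl libraries, without overlap.

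Other cyclic AMP effectors had 1 of 11 tested genes higher and 1 lower. Both belong to the Popeye domain family of membrane proteins that bind cyclic AMP. Popdc2 had 637, 754 and 822 CPM in KO libraries and 965, 1038 and 1116 CPM in Ctrl libraries (lowest, median, highest), without overlap (log2 -0.51, SE 0.0627, edgeR adjusted p = 1.60e-05). Popdc3 rose to 56.6 ± 7.56 CPM in KO against 45.1 ± 4.00 CPM in Ctrl libraries (log2 0.33). Creb1, the gene of the factor that binds the cyclic AMP response element, did not pass (log2 -0.12, adjusted p = 0.328, edgeR).

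Downstream of the alpha1 receptors, 1 of 13 tested genes rose and 2 fell. Prkcd, protein kinase C delta, had 13.1, 18.9 and 26.6 CPM in KO libraries and 6.66, 7.73 and 11.7 CPM in Ctrl libraries (lowest, median, highest), without overlap (log2 1.12, SE 0.164, edgeR adjusted p = 7.64e-05). Plce1, phospholipase C epsilon, fell by 0.50 on the log2 scale (31.4 ± 2.98 CPM in KO, 44.4 ± 6.23 CPM in Ctrl), and Prkce, protein kinase C epsilon, by 0.31 (16.0 ± 1.49 CPM in KO, 19.8 ± 2.57 CPM in Ctrl). The Prkce call was lost without Ctrl replicate 1 (adjusted p = 0.0516) and in the 10 libraries outside indices 7 to 10 (0.0970).

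Of the remaining lists, 1 of 9 RGS genes, which speed the shut-off of G proteins, was lower (Rgs7, log2 -0.65) and 0 were higher. Among 10 phosphatase genes the catalytic subunit Ppp1cb fell by 0.21 on the log2 scale and 0 rose, a call lost without Ctrl replicate 6 or 7 (adjusted p = 0.0501 and 0.0503, edgeR) and with no filter on low counts (0.0559). Among 12 other receptors of heart cells, the endothelin A receptor gene Ednra rose and the muscarinic receptor gene Chrm2 fell. Ednra had 111, 163 and 194 CPM in KO libraries and 85.1, 88.2 and 96.7 CPM in Ctrl libraries (lowest, median, highest), without overlap (log2 0.79, SE 0.105, edgeR adjusted p = 3.11e-05). Markers of pericytes and smooth muscle, cells in which Ednra is also expressed, summed to between 1415 and 2253 CPM in KO and between 990 and 1289 CPM in Ctrl libraries, with 3 of 8 higher and 1 lower. Acta2 made up most of that sum, at 1211 CPM in KO and 696 CPM in Ctrl libraries, and Cspg4 and Tagln were the other higher ones, while Abcc9 was lower at 270 CPM in KO and 350 CPM in Ctrl libraries. The remaining markers passed in neither direction. They were Pdgfrb (33.7 CPM in KO, 36.1 CPM in Ctrl), Rgs5 (27.6 and 26.4 CPM), Kcnj8 (16.5 and 19.4 CPM) and Myh11 (14.3 and 11.2 CPM). The part of pericytes and smooth muscle in the Ednra level was not tested. Chrm2, whose receptor mediates the vagal brake on the heart through inhibitory G proteins, averaged 91.3 ± 11.6 CPM in KO and 115 ± 10.6 CPM in Ctrl libraries (log2 -0.34, edgeR adjusted p = 0.00437).

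**Figure D5:**
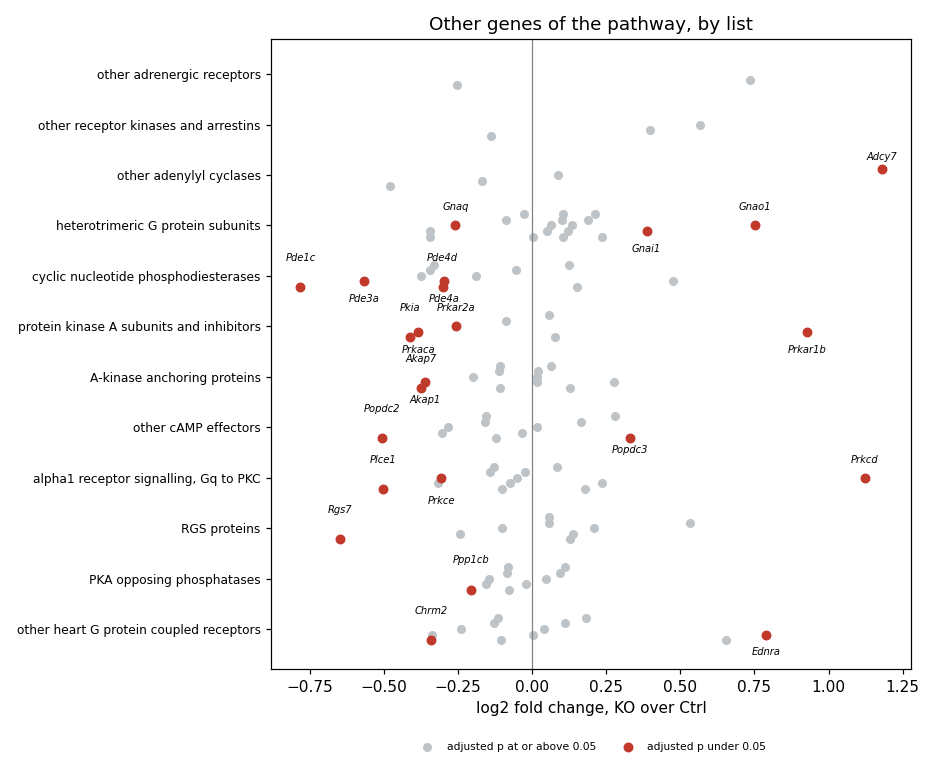
Log2 fold change of KO over Ctrl for the 113 tested genes of 12 lists, 1 point per gene, with the 23 genes at an adjusted p under 0.05 in red and named. The phosphodiesterase list has 4 red points, all below 0, and the largest positive values among red points are those of Adcy7 and Prkcd.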

How the data were processed

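Poly(A) RNA of sorted cardiomyocytes was measured in 14 libraries (7 KO, 7 Ctrl), made with the SMART-Seq v4 and Nextera XT kits per the labels' protocols. The authors deposited raw read counts per gene; STAR, featureCounts and build mm10 are named in the submitters' processing notes, while the sources used here give no versions, annotation or strand setting. The kit does not mark strand, and reads carry no molecular identifiers. Standard errors and intervals come from the spread between libraries in the fits. Columns not mapped to a sample numbered 0. No label states that each sample was its own animal; the p-values then reflect sample-to-sample spread, which may be technical.

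Counts were fitted with edgeR 4.0.16 (R 4.3.3) by the quasi-likelihood F test after filterByExpr and TMM scaling, over 11170 genes, with Benjamini-Hochberg adjustment and calls at an adjusted p under 0.05. Standard errors were computed from the F statistic. CPM used TMM-scaled totals, and levels per kilobase used the deposited exonic length. The fits were tested on simulated data. Alternatives were DESeq2 1.42.0, median-of-ratios scaling, no filter, leaving out each library, a replicate block, and library indices 7 to 10 as a term or apart. The members, the 12 pathway lists and the marker lists were chosen with earlier results of these data known. Named genes were the members, Ryr2, up to 3 called genes per list and direction with the smallest p (all of them where 5 or fewer were called), and the 5 genes nearest in pattern to Grk5 and Adrb1. Some genes these rules take in are not reported here. Schwann cell and neuron markers summed to between 4.30 and 9.65 CPM in KO and 10.1 and 13.7 CPM in Ctrl libraries, and erythroid markers to between 0.862 and 72.9 CPM in KO and 0.863 and 16.1 CPM in Ctrl libraries. Replicates of a group differed beyond counting noise (chi-square per degree of freedom at least 4.58).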

Additional observations from a re-analysis of the deposited data

Results flagged for a closer look

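In 7 of 86 groups of 7 libraries looked at, 1 library lay far from the other 6, by the gap to its nearest neighbour over the whole range; chance gives about 1 in 20 such groups. Adra1a stood at 14.6 CPM in KO replicate 2, with the other KO libraries at 6.01 to 9.31 CPM. Grk6 stood at 13.6 CPM in Ctrl replicate 7, with the other Ctrl libraries at 17.97 to 20.35 CPM. Eef1a1 stood at 474 CPM in KO replicate 7, with the others at 289 to 366 CPM. In Ctrl replicate 1, Prkaca stood at 614 CPM (others 467 to 504 CPM) and Rgs7 at 6.25 CPM (others 12.1 to 15.3 CPM). Gnai1 stood at 8.04 CPM in Ctrl replicate 3 (others 10.6 to 11.96 CPM), and Plce1 at 30.9 CPM in Ctrl replicate 7 (others 45.1 to 50.8 CPM).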

How the results depend on the processing

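Grk5 was called higher in all 21 alternatives, and no member or named gene changed sign where it was called. These fits reuse the libraries and the contrast from which the members and named genes were taken. The agreement is therefore a description and no further support. The number of members called lower was 1, against 0 in the 10 libraries outside indices 7 to 10, and ran from 1 to 2 on leaving out single libraries (2, with Adra1b, without KO replicate 3). Pathway genes called higher numbered 7, against 4 within library indices 7 to 10, and ran from 5 to 9 with single libraries left out; those called lower numbered 16, against 6 within these indices, and ran from 12 to 16. Fewer libraries were used in each of these fits. With a replicate block the pathway counts were 11 higher and 17 lower; replicate numbers did not pair the samples, since deviations of same-numbered libraries correlated by 0.0614 to 0.533 and 2 of 7 KO libraries matched their own number best. Of the level orders, 3 Ctrl pairs passed, against 0 without any 1 Ctrl library (6 libraries allow no p below 0.0312). Without library indices 7 to 10 no pair could pass, since 5 libraries allow no p below 0.0625 in the sign-flip test. Without length scaling 5 Ctrl pairs passed, and 4 KO pairs passed, against 0 KO pairs with it. Without that scaling 3 ratios turned round: Adrb1 over Adcy5 in KO (log2 -0.88), and in Ctrl Adra1b over Adcy6 (-0.075) and Grk5 over Arrb1 (-0.75), as transcripts differ in length. Of the interaction values 0 of 162 changed their call.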

Other observations

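Dbh, the gene of dopamine beta-hydroxylase, which makes noradrenaline from dopamine, was noticed after its values were seen, as a member of the list of Schwann cell and neuron markers. It averaged 3.44 CPM in KO libraries (2.28 to 4.11 CPM) and 8.78 CPM in Ctrl libraries (5.99 to 10.4 CPM), without overlap (log2 -1.36, SE 0.156). Across all genes tested, 4.71% had all KO libraries below all Ctrl libraries. Because Dbh was picked for its values, they are given as a description. Th, tyrosine hydroxylase, which starts the same synthesis in nerve endings, averaged 0.0173 CPM in KO and 0.0219 CPM in Ctrl libraries, and Snap25 had 0 counts in all libraries.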
